A study of Drosophila melanogaster with 16 samples.

Results

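The genes described here encode nuclear subunits of the mitochondrial respiratory chain and of ATP synthase in Drosophila melanogaster. They were taken as the probe sets whose gene symbol starts with ND- (complex I), Sdh followed by A to D (complex II), UQCR (complex III), COX followed by a digit (complex IV) or ATPsyn (complex V, the ATP synthase). Of 70 such probe sets, 2 carried several symbols and were left out, and the remaining 68 represent 66 genes of the 10844 genes with 1 symbol on the array. Where a gene had 2 probe sets, the one with the higher mean was used. By complex they number 31 in complex I, 6 in II, 4 in III, 11 in IV and 14 in V. A final L in the symbol, with or without a digit, names 17 of them as copies of another subunit gene, and 49 are not copies. ND-MNLL, whose symbol also ends in L, was counted among the 49.

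The respiratory chain sits in the inner mitochondrial membrane. Complexes I and II pass electrons from NADH and succinate to ubiquinone, complex III hands them to cytochrome c, and complex IV gives them to oxygen. Complexes I, III and IV pump protons, and ATP synthase lets the protons back through a rotating ring and stalk to make ATP. Each complex except II mixes subunits from nuclear genes with a few core subunits from mitochondrial DNA, and many of the nuclear subunits are small accessory proteins. In flies, many of the copies are known as duplicates expressed mainly in the testis.

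RNA was measured on Affymetrix arrays at embryonic stage 11. Control embryos were wild type and gcm embryos overexpressed gcm, the transcription factor that starts glial fate (titles name them scagcm), and in both the neuroectodermal cells were marked with the membrane protein mCD8-GFP. Each genotype was read as whole embryos and as marked cells purified, after dissociation, with magnetic beads against mCD8, called sorted cells here. The driver of gcm and of the marker, the strain, the sexes, and whether embryos were pooled are not given in the sources used here.

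Of 16 deposited arrays, sorted gcm 2 and 3 held identical values and were entered once. The array labelled whole control 3 had a mean correlation across probe sets of 0.690 with the other whole embryo arrays and 0.931 with the sorted arrays. Its gcm level, 13.10, and the level of the glial gene repo, 10.77, lay inside the ranges of the sorted gcm arrays. It was left out of the main comparison, which has 14 arrays (4 sorted control, 3 sorted gcm, 3 whole control, 4 whole gcm), and the counts of genes called between sorted cells and whole embryos, or between gcm and control, are also given with it (15 arrays). Per array the median intensity ran from 31.8 to 58.4. A level below means log2 of the quantile-normalised intensity plus 16, and levels below 5, which stand for intensities below 16, are called near background. A change is a difference between 2 mean levels, and a fold is 2 raised to that difference. It passed the test at an adjusted p under 0.05 in limma, adjusted over all 13966 probe sets. The labels do not say whether replicates are separate embryo collections; p-values thus cover only the spread between these arrays, which may be technical, and the number of arrays limits the precision.

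Most markers of neuroectoderm, glia and neurons were higher in sorted cells. Across all probe sets 24.9% were higher and 21.5% lower in controls, and 24.7% and 20.9% in gcm. Of 10 neuroectoderm and neuroblast markers 7 were higher in sorted cells in controls and 7 in gcm, all 6 glial markers were higher in both, and 4 and 5 of 7 germ cell and maternal markers were lower. Of 5 neuron markers 3 were higher in each, and of 3 tracheal markers 2 and 3. With 15 arrays the glial markers called higher were 0 of 6 in controls (2 with an unadjusted p under 0.05 in limma, smallest adjusted p 0.0633, median change 1.11 in place of 1.92) and 6 in gcm. The neuroectoderm markers were then 6 and 7 higher, the neuron markers 3 and 3, the tracheal markers 2 and 2, and the germ cell and maternal markers 2 and 5 lower. With 14 arrays, the neuroectoderm markers l(1)sc and SoxN went the other way in controls, with changes of -2.05 and -1.22, and 1 did in gcm. The other marker lists were not lower as a whole. In controls and gcm, 1 and 1 of 2 mesoderm and 0 and 1 of 4 fat body markers were higher. Of 3 midgut markers 1 and 1 were lower and 0 and 1 higher, and of 6 hemocyte markers 1 and 1 lower and 1 and 0 higher. With 15 arrays 1 and 1 hemocyte markers were lower, and 1 mesoderm and 1 fat body marker higher in gcm.

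Most respiratory chain genes were far lower in sorted cells than in whole embryos. In controls 48 of 66 were lower and 1 higher, and in gcm embryos 45 were lower and 2 higher. Across all probe sets 21.5% were lower and 24.9% higher in controls, and 20.9% and 24.7% in gcm. The median change of the 66 genes was -2.60 in controls and -2.28 in gcm, against 0.07 and 0.06 for all probe sets. Among the 49 genes that are not copies, 45 and 44 were lower, and 37 and 36 of them lay more than 2 lower on the log2 scale. Of all 13966 probe sets, 861 in controls and 838 in gcm were called lower by more than 2. The per-array median of the 66 genes lay between 5.78 and 6.08 on the 7 sorted arrays and between 8.86 and 9.35 on the 7 whole embryo arrays. The array labelled whole control 3 had 5.95, inside the sorted range. With 15 arrays, 45 genes were lower and 0 higher in controls (13.3% and 12.8% of all probe sets, and 46 of the genes with an unadjusted p under 0.05 against 39.2% of all probe sets), with a median of -2.01. In gcm they were 45 and 1 (17.4% and 19.5%). In controls the groups did not overlap for 48 genes in the lower direction and for 1 in the higher, and in gcm for 47 and 3 (22.6%, 24.6%, 23.4% and 27.3% of all probe sets).

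**Figure D1:**
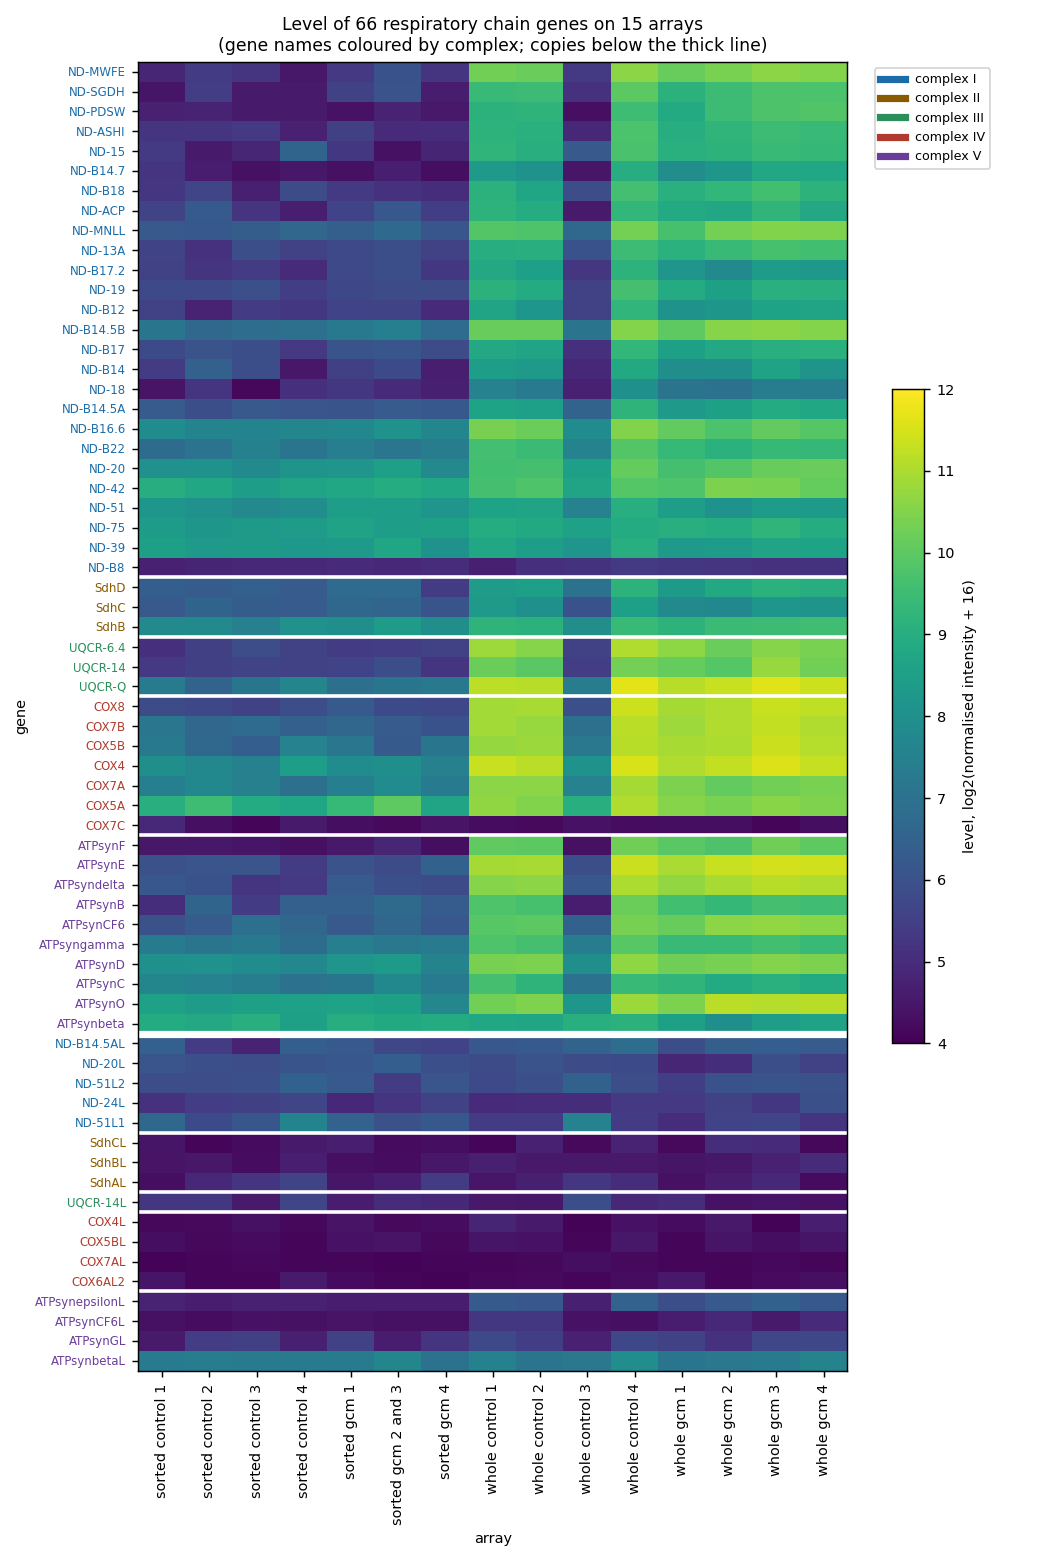
Level (colour, log2 of normalised intensity plus 16) of the 66 genes (rows, by complex, copies at the bottom) on 15 arrays (columns). The 7 sorted arrays are dark for most rows above the copies, the whole embryo arrays are bright, and the array labelled whole control 3 has the colours of the sorted arrays.

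Both comparisons of sorted cells with whole embryos gave similar changes gene by gene, though not the same order within a complex, and they share no array. The changes differed by at most 1.05 on the log2 scale, and by less than 1 for 64 of 66 genes. Pearson's r across the 66 genes was 0.98, a description only, since the genes are not independent and all arrays were normalised together. In both comparisons 45 genes were lower. The genes lower in controls only were ND-51, ATPsynCF6L and COX4L, all 3 called with 14 arrays and not with 15. In bulk RNA, fewer cells with a transcript and less of it per cell cannot be told apart.

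Complex I, the NADH dehydrogenase, had 24 of 26 genes other than copies lower in sorted control cells and 23 in sorted gcm cells, with median changes of -3.41 and -2.93 (with 15 arrays 23 in each, with -2.56 and -2.93). ND-MWFE, a small accessory subunit of the membrane arm, had the largest difference of complex I in controls. It read 4.86, 5.40, 5.24 and 4.50 on the sorted control arrays and 5.32, 6.03 and 5.22 on the sorted gcm arrays. On whole embryo arrays it read 10.29, 10.16 and 10.62 in controls and 10.15, 10.39, 10.61 and 10.50 in gcm. No sorted array came within 4 log2 units of a whole embryo array, except that labelled whole control 3, which read 5.37. The change was -5.35 (SE 0.23, adjusted p = 1.07e-10) in controls and -4.89 (SE 0.23, adjusted p = 2.78e-10) in gcm. The gene lies on 2R from 13158666 to 13160190 (all positions are of assembly Release 6).

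Other accessory subunits fell as well. ND-SGDH fell from 9.64 ± 0.30 (SD, n = 3) in whole controls to 4.77 ± 0.47 (SD, n = 4) in sorted controls, and ND-PDSW, which in gcm had the largest change of complex I (-4.91), from 9.28 ± 0.20 (SD, n = 3) to 4.67 ± 0.12 (SD, n = 4). ND-MNLL, read by 2 probe sets, had changes of -3.63 and -3.80 by the one used and -4.07 and -3.44 by the other. ND-ACP, the mitochondrial acyl carrier protein, had changes of -3.69 and -3.19, and ND-B14.5B, bright in whole embryos at 10.27 ± 0.22 (SD, n = 3), had -3.36 and -3.25.

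The large subunits of complex I showed smaller differences than most of its other subunits. ND-75, the iron-sulphur protein of the arm that oxidises NADH, read 8.40, 8.23, 8.32 and 8.42 in sorted controls and 8.94, 8.86 and 8.94 in whole controls. Its groups did not overlap, and it fell by 0.57 (SE 0.12, adjusted p = 0.00109). ND-51, the flavin-binding subunit of the same arm, had a change of -0.79 in controls (adjusted p = 6.37e-04) and of 0.05 (adjusted p = 0.807) in gcm. The test of that difference between genotypes gave 0.84 (SE 0.22, adjusted p = 0.208), so it is not shown. ND-39, an accessory subunit beside the ubiquinone channel, had changes of -0.40 (adjusted p = 0.0761) and -0.13 (adjusted p = 0.596). ND-42, an accessory subunit, had changes of -1.05 (adjusted p = 8.84e-05) and -1.35 (adjusted p = 7.30e-06). ND-20, a smaller subunit that carries the iron-sulphur centre next to ubiquinone, had changes of -1.75 and -1.81. ND-75, ND-39, ND-MNLL and ND-ACP were named after their values were seen.

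Many complex I symbols carry the mass in kDa of the matching bovine subunit. The 4 genes above 30 kDa (ND-75, ND-51, ND-42 and ND-39) had changes of -1.05 to -0.40 in controls. Of the 16 below 30 kDa, 15 had changes of -3.99 to -1.75, and ND-B8, with group means of 4.84 to 5.21 near background, had -0.20. Spearman's rho between this mass and the change was 0.42 in controls and 0.51 in gcm over 20 genes, and 0.65 and 0.70 without ND-B8, given as a description of genes that share arrays and normalisation.

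Complex II, succinate dehydrogenase, also works in the citric acid cycle, and all its subunits come from nuclear genes. Its 3 genes other than copies fell in both comparisons, by less than most genes of the other complexes, and were also called with 15 arrays. The iron-sulphur subunit SdhB read 7.78, 7.80, 7.49 and 8.05 in sorted controls and 9.21, 9.15 and 9.41 in whole controls. The sorted values all lie below the whole values, with a change of -1.47 (SE 0.16, adjusted p = 1.56e-06), and of -1.28 (adjusted p = 7.05e-06) in gcm. The membrane anchor SdhC had changes of -1.91 in controls and -1.53 in gcm, and the other anchor SdhD had -2.33 and -2.49. SdhB lies on 2R from 6807626 to 6809172.

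Complex III had 3 genes other than copies, all small subunits without redox centres, and all fell by more than 4 in both comparisons. With 15 arrays all 3 were called and their median in controls was -3.47 in place of -4.65. UQCR-6.4 read 5.12, 5.51, 5.89 and 5.56 in sorted controls and 10.84, 10.55 and 11.05 in whole controls, and 5.43, 5.46 and 5.56 in sorted gcm cells against 10.63, 10.19, 10.56 and 10.38 in whole gcm embryos. Every sorted value lies below 6 and every whole value above 10. The changes were -5.29 (SE 0.18, adjusted p = 1.01e-11) and -4.96 (SE 0.18, adjusted p = 1.95e-11). UQCR-14 had changes of -4.65 and -4.69, and UQCR-Q, the brightest of the 3 in whole controls at 11.34 ± 0.29 (SD, n = 3), had -4.18 and -4.27. UQCR-6.4 lies on 2R from 17572096 to 17572784.

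Complex IV, cytochrome c oxidase, takes its catalytic core from mitochondrial DNA, and no probe set with a symbol of that genome was matched. Of 7 nuclear genes other than copies, 6 fell in both comparisons, with 15 arrays too. COX8, a small single-helix subunit, read 5.82, 5.74, 5.56 and 5.92 in sorted controls and 10.88, 10.94 and 11.38 in whole controls. In gcm it read 6.27, 5.79 and 5.74 in sorted cells and 10.92, 11.06, 11.33 and 11.22 in whole embryos. The groups lie far apart, with changes of -5.31 (SE 0.17, adjusted p = 6.03e-12) and -5.20 (SE 0.17, adjusted p = 8.44e-12). COX7B had changes of -4.19 and -4.74, COX5B -3.93 and -4.27, and COX4, a subunit packed against the core, -3.43 and -3.52. COX8 lies on 3L from 21538859 to 21539447.

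Of the 6 that fell, COX5A, a peripheral subunit on the matrix side, did so least in both comparisons, with changes of -1.68 (SE 0.25, adjusted p = 4.38e-05) in controls and -1.15 (SE 0.25, adjusted p = 0.0014) in gcm. Its sorted gcm values of 9.35, 10.01 and 8.67 were spread more widely than those of all but 2 of the 66 genes. COX7C was near background in every group (4.23 to 4.49 on average).

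Complex V, the ATP synthase, had 9 of 10 genes other than copies lower in both comparisons, with 14 and with 15 arrays, and a wide range of changes between subunits. ATPsynF, a small subunit of the membrane part, had the largest difference of the 66 genes. It read 4.51, 4.51, 4.46 and 4.33 in sorted controls and 10.05, 9.99 and 10.28 in whole controls. In gcm it read 4.55, 4.86 and 4.30 in sorted cells and 9.96, 9.78, 10.27 and 10.01 in whole embryos. It was bright in whole embryos and near background in sorted cells. The changes were -5.65 (SE 0.17, adjusted p = 2.60e-12) and -5.43 (SE 0.17, adjusted p = 5.24e-12). Since the sorted level is near background, the size depends on the number added before the log: with 1 in place of 16 it was -7.31 in controls, and with 64 it was -4.04. The same limit holds for 6 other genes lower in both comparisons with a sorted group mean under 5, ND-15, ND-18, ND-B14.7, ND-PDSW, ND-SGDH and ATPsynepsilonL. ND-MWFE, with a mean of 5.002 in sorted controls, lies at that cut, so the size of its change is limited in the same way.

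ATPsynE, another small membrane subunit, had changes of -5.18 and -5.15, and ATPsyndelta, part of the central stalk, -5.04 and -4.93. The peripheral stalk, which holds the catalytic head still, fell less evenly. Its subunits ATPsynB, ATPsynCF6, ATPsynD and ATPsynO had changes of -4.03, -3.64, -2.55 and -1.99 in controls and -3.02, -4.15, -2.36 and -2.67 in gcm. ATPsyngamma, the shaft of the rotor, had changes of -2.69 and -2.15. ATPsynC, which forms the rotating ring, had -2.03 and -1.63, and its second, dimmer probe set had -1.06 (adjusted p = 0.00276) and -0.33 (adjusted p = 0.326). ATPsynB, ATPsyngamma and ATPsynC were named after their values were seen.

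ATPsynbeta, the catalytic subunit of the head, did not follow the other genes of its complex. It read 8.92, 8.84, 9.01 and 8.54 in sorted controls and 8.78, 8.74 and 9.13 in whole controls. These values overlap, and the change was -0.06 (SE 0.17, adjusted p = 0.819), with a 95% confidence interval from -0.42 to 0.31. In gcm it read 8.99, 8.85 and 8.93 in sorted cells and 8.55, 7.99, 8.49 and 8.62 in whole embryos, higher in sorted cells by 0.51 (SE 0.17, adjusted p = 0.0234). The call ended with 15 arrays (adjusted p = 0.0584) and without whole gcm 2, sorted gcm 1 or sorted gcm 4. ATPsynbeta lies on 4 from 1031484 to 1034917.

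The other catalytic head subunit, alpha, is encoded by blw, which the symbol rule does not take in and which was named after its values were seen. It was higher in sorted cells by 0.94 (SE 0.20, adjusted p = 9.95e-04) in controls and 1.27 (SE 0.20, adjusted p = 6.11e-05) in gcm, also with 15 arrays (adjusted p = 0.0413 and 0.00268).

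**Figure D2:**
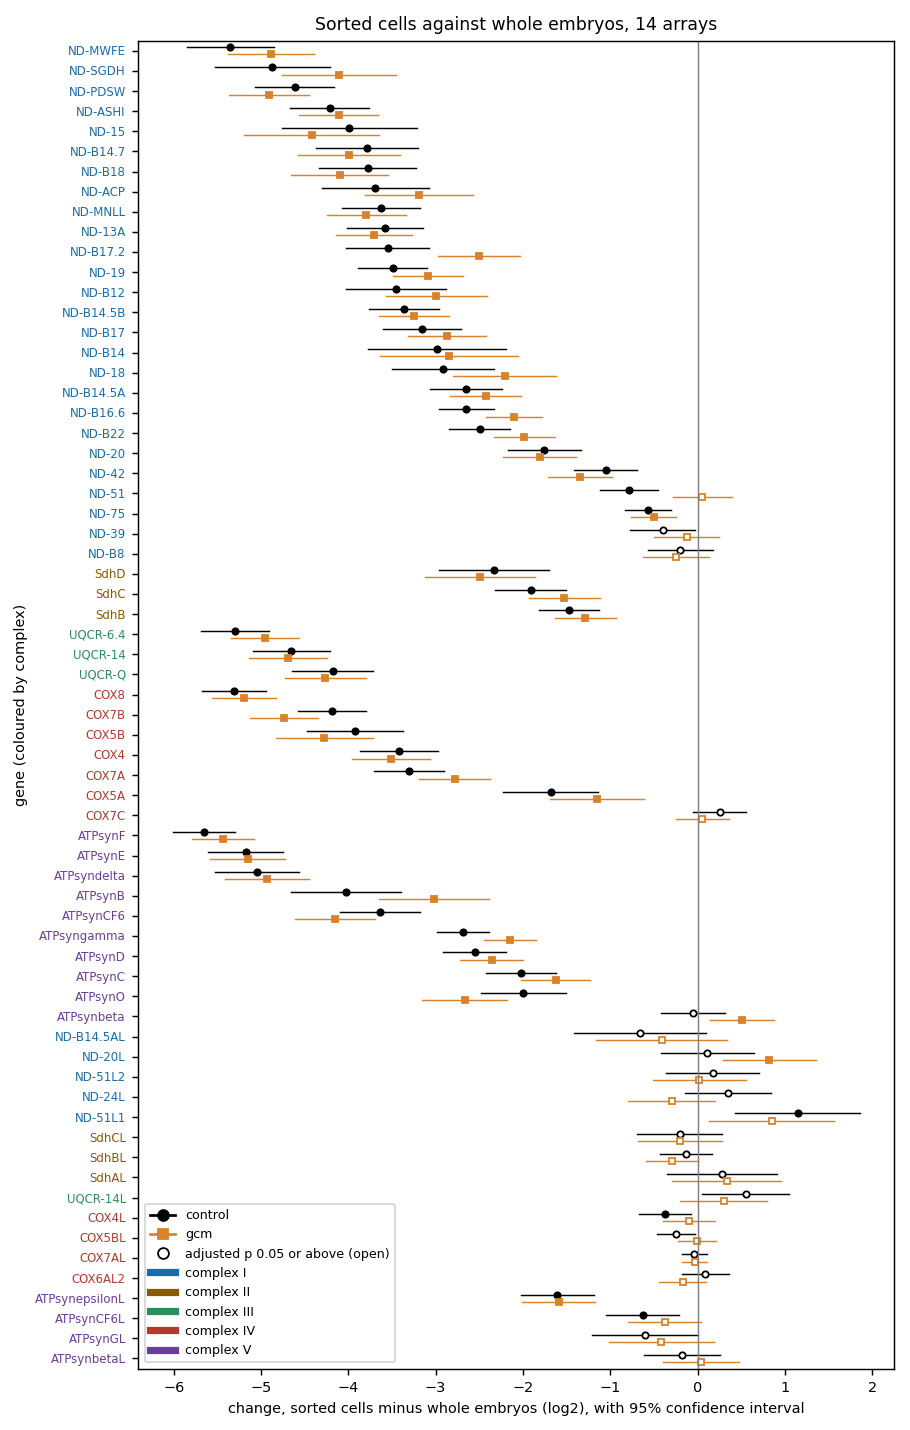
Change of each gene between sorted cells and whole embryos (log2, negative is lower in sorted cells) with its 95% confidence interval, in controls (black) and gcm (orange), 14 arrays, open where the adjusted p was 0.05 or above. Genes other than copies run from -5.65 for ATPsynF in controls to 0.51 for ATPsynbeta in gcm, and most copies lie near 0.

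**Figure D3:**
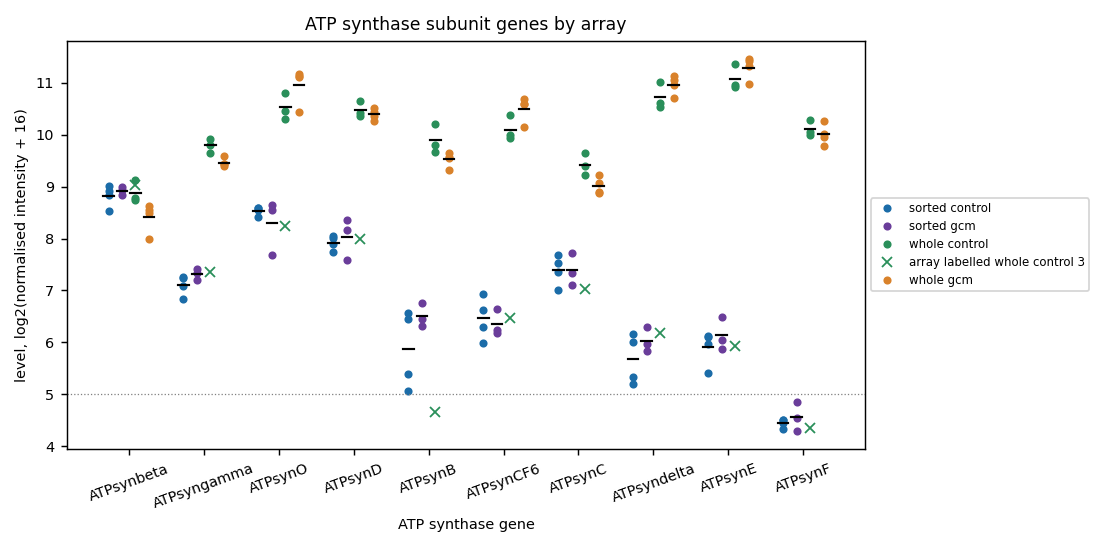
Level (log2 of normalised intensity plus 16) of the 10 ATP synthase genes other than copies on each array, with a bar at the group mean and a dotted line at the near-background level of 5. ATPsynbeta overlaps between preparations in controls, the other genes do not, and the cross of the array labelled whole control 3 lies among or beside the sorted arrays.

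The copies gave little signal. Of 17, 7 had a mean level under 5 in all 4 groups, and the only other such gene was COX7C. In controls 3 copies were lower (ATPsynepsilonL, ATPsynCF6L and COX4L) and 1 was higher, and in gcm 1 was lower and 1 higher. Of all probe sets 21.5% were lower and 24.9% higher in controls and 20.9% and 24.7% in gcm, so the share of copies lower in controls was near that background. With 15 arrays 1 copy was lower and 0 higher in controls (2 with an unadjusted p under 0.05 in limma), and 1 and 1 in gcm. The median change was -0.13 in controls and -0.10 in gcm. ATPsynepsilonL, a copy of the epsilon subunit of the central stalk, fell, with changes of -1.61 (SE 0.20, adjusted p = 4.54e-06) and -1.59 (SE 0.20, adjusted p = 5.31e-06), from levels of 6.32 and 6.22 in whole embryos.

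The copy that was higher in controls, ND-51L1, read 6.68, 5.81, 6.15 and 7.60 in sorted controls and 5.42, 5.39 and 5.42 in whole controls. The groups did not overlap, and the change was 1.15 (SE 0.34, adjusted p = 0.0106), against 0.61 (adjusted p = 0.350) with 15 arrays. In gcm it was 0.85 (adjusted p = 0.05003, just above the threshold). ND-20L, a copy of the ND-20 gene of the quinone-binding module, was higher in gcm by 0.82 (SE 0.25, adjusted p = 0.0131) and differed by 0.11 (adjusted p = 0.747) in controls. Its difference between the genotypes was 0.71 (SE 0.35, adjusted p = 0.509). ATPsynbetaL, the brightest copy at 7.28 to 7.504 on average, had changes of -0.18 (adjusted p = 0.505) and 0.04 (adjusted p = 0.896).

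SdhAL, SdhBL and SdhCL, copies of 3 subunits of complex II, had mean levels of 4.35 to 5.02. The remaining copies were UQCR-14L, COX5BL, COX6AL2, COX7AL, ND-24L, ND-51L2, ND-B14.5AL and ATPsynGL, and their changes ran from -0.66 to 0.55 with no call in either comparison. Under median centring COX4L had a change of 0.00298 in place of -0.38 and COX7AL one of 0.38 (adjusted p = 0.00897) in place of -0.04, so neither has a settled direction.

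Across the whole array, the change between sorted cells and whole embryos also went with gene length. The 10726 other genes with a position had a Spearman rho between genomic length, introns included, and the change of 0.35 in controls and 0.32 in gcm. The same rho over the 66 genes was 0.11 and 0.13. Over the 46 of them with a mean level of at least 8 over whole embryo arrays it was 0.36 and 0.38, while the other genes were taken at any level. Over all other genes the median change in controls was -0.12 under 1000 bp (1460 genes), -0.17 from 1000 bp to under 2000 bp (3041), 0.09 from 2000 bp to under 4000 bp (2702) and 0.44 at 4000 bp or more (3523). The medians of the 66 genes in these bins were -2.65 (27 genes), -3.23 (28), -0.13 (7) and -2.19 (4). Choosing genes by their level in whole embryos favours negative changes, in these genes and in others alike. A level of at least 8 was asked of the mean over the whole embryo arrays of the main comparison, control and gcm together. Among other genes that bright, the median change in controls was -3.09 under 1000 bp (175 genes), -1.63 from 1000 bp to under 2000 bp (435), -0.36 from 2000 bp to under 4000 bp (461) and 0.42 at 4000 bp or more (463). Of the 66 genes, 46 reach that level, and their medians in the same bins were -3.63 (15 genes), -3.43 (25), -0.57 (3) and -3.99 (3). The quartiles of the other genes were -3.76 and -2.29 under 1000 bp, and -2.53 and -0.92 from 1000 bp to under 2000 bp. In gcm the medians of the 2 shorter bins were -3.80 and -3.02, against quartiles of other genes of -3.64 and -2.05, and of -2.32 and -0.67. So under 1000 bp the median lay inside those quartiles in controls and just outside in gcm. From 1000 bp to under 2000 bp it lay below the lower quartile of the other genes in controls and in gcm. These are descriptions with no test, and the choice by whole embryo level limits what they show.

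**Figure D4:**
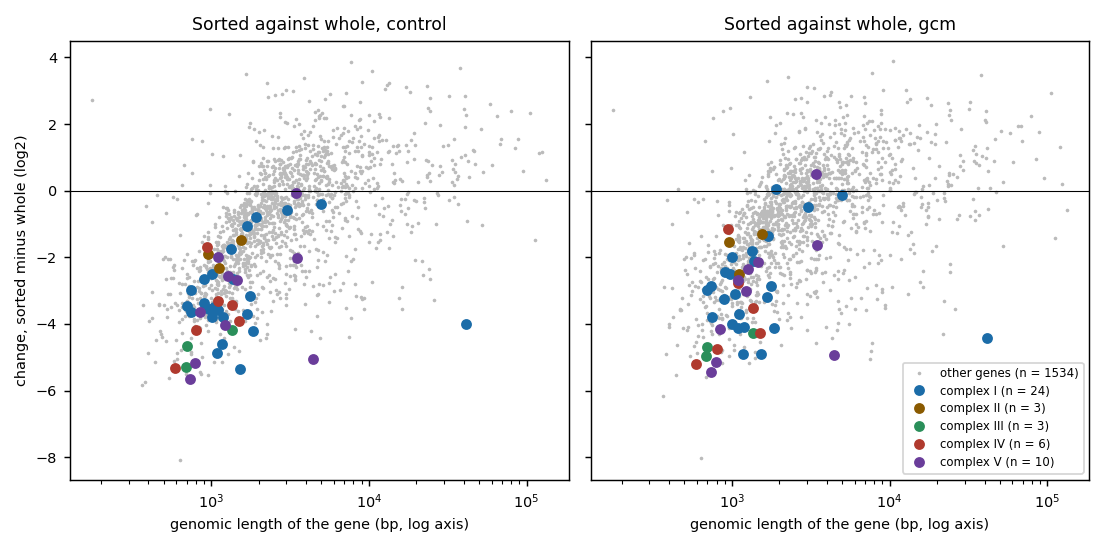
Change between sorted cells and whole embryos (log2) against genomic gene length (bp, log axis) for genes with a mean level of at least 8 over the whole embryo arrays (control and gcm together), in controls (left) and gcm (right), with respiratory chain genes coloured by complex and 1534 other genes in grey. Short genes lie low in both panels, and many respiratory chain genes of 1000 bp to 2000 bp lie low among the grey points, all chosen by their level in whole embryos.

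Measures of RNA quality and signal moved with the preparation too. For the actin control probe sets, 3' signal over 5' signal (log2) was 2.05 ± 0.24 (SD, n = 7) on sorted arrays and 0.75 ± 0.23 (SD, n = 7) on whole embryo arrays, while for eIF-4a it was 0.56 ± 0.09 (SD, n = 7) and 1.001 ± 0.151 (SD, n = 7), and for GAPDH -0.22 ± 0.52 (SD, n = 7) and 0.65 ± 0.39 (SD, n = 7). Thus actin was higher on sorted arrays, and the other two were lower. The mean intensity, trimmed at 2% and 98%, was 93.4 ± 14.7 (SD, n = 7) and 128.6 ± 18.9 (SD, n = 7). Their part in the differences of these genes, and that of gene length, was not tested.

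Comparing gcm with control asks whether the glial factor moved respiratory chain genes, and 0 of 66 passed the test in either preparation. In sorted cells limma gave 5 genes an unadjusted p under 0.05, where 10.6% of all probe sets had one and 0.78% were called. The changes ran from -0.52 to 0.65 with a median of 0.07, and for 60 of 66 genes the 95% confidence interval lay within 1 of no change. ND-51 had the smallest adjusted p, 0.368, with a change of 0.39. The groups separated for 1 gene, ND-75, which read 8.60, 8.49 and 8.55 in sorted gcm cells, above every sorted control value, and 0 separated in the other direction (4.64% and 4.45% of all probe sets). A change inside these intervals cannot be seen with this number of arrays.

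In whole embryos 9 genes had an unadjusted p under 0.05 (11.6% of all probe sets), 0 were called (0.444%), and changes ran from -0.67 to 0.44 with a median of -0.07. For 61 genes the interval lay within 1 of no change. ND-B17.2, an accessory subunit of complex I, read 8.16, 7.83, 8.41 and 8.27 in whole gcm embryos and 8.81, 8.51 and 9.18 in whole controls. Every gcm value lies below every control value, with a change of -0.67 (SE 0.22, adjusted p = 0.193). Groups separated for 8 genes in the lower direction and 1 in the higher (6.97% and 5.29% of all probe sets). With 15 arrays 0 genes were called by limma in sorted cells (0 with an unadjusted p under 0.05, where 5.56% of all probe sets had one and 0.122% were called) and 0 in whole embryos (5 unadjusted, against 11.2% and 0.0573%), and the whole embryo median became 0.46. Array weights alone gave 3 calls in whole embryos: ND-42 (0.49, adjusted p = 0.0415), ATPsynC (-0.50, adjusted p = 0.0496) and ND-B16.6 (-0.41, adjusted p = 0.0446).

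The difference of the gcm change between sorted cells and whole embryos was called by limma for 0 genes (7 with an unadjusted p under 0.05, where 10.5% of all probe sets had one and 0.0286% were called). It ran from -0.67 to 1.05 with a median of 0.11, and its intervals are wide: 40 of 66 lay within 1 of no difference. ND-B17.2 had the highest value, 1.05 (SE 0.31, adjusted p = 0.241).

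**Figure D5:**
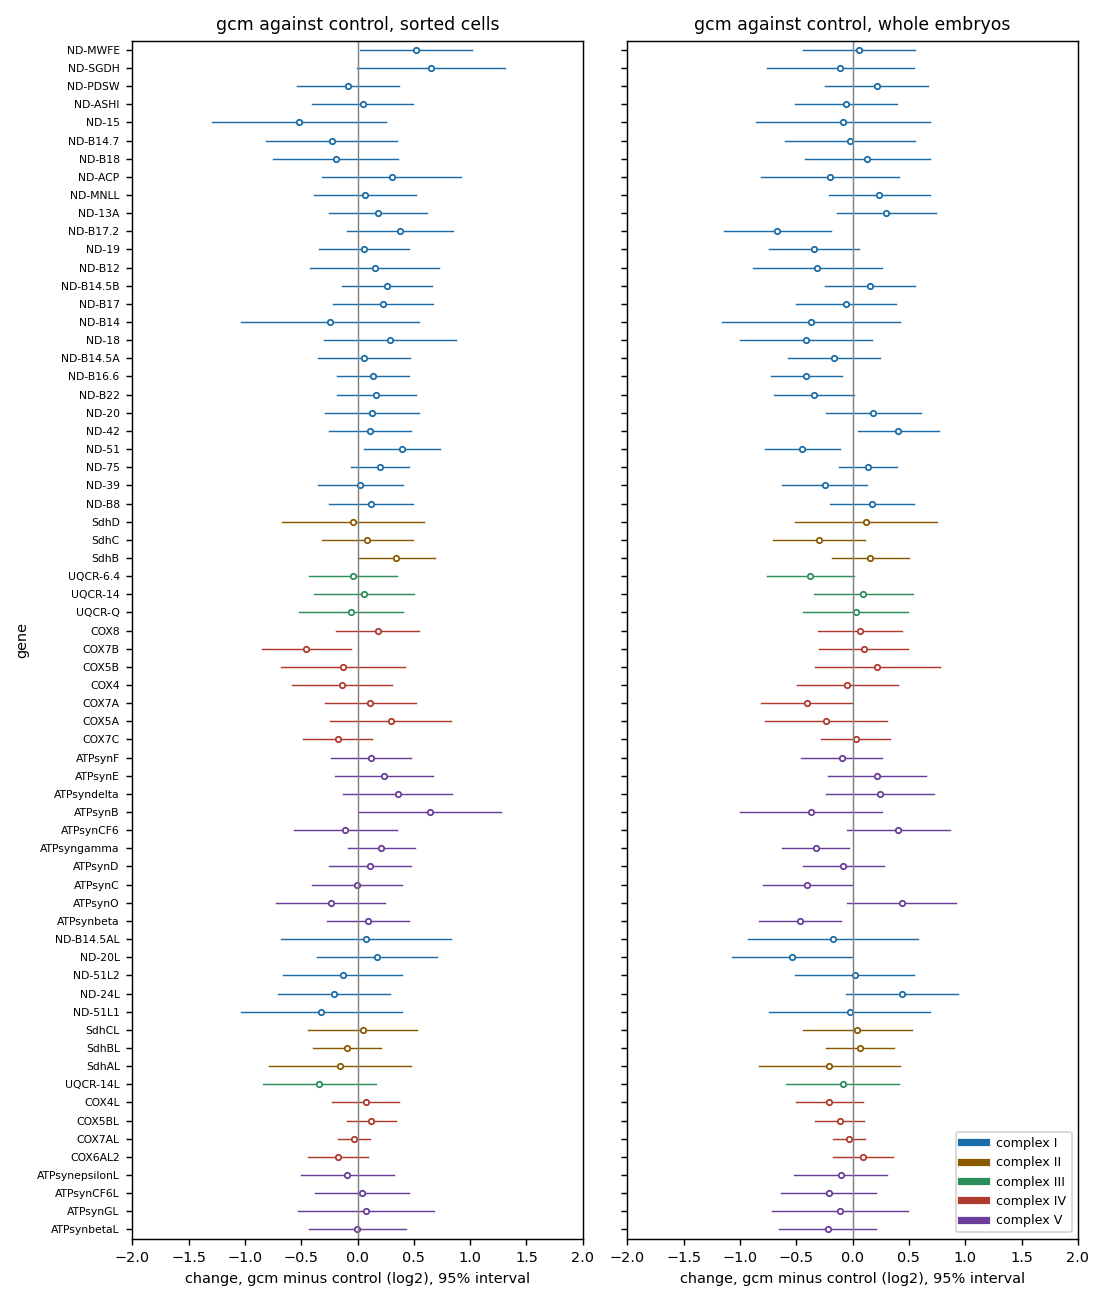
Change between gcm and control (log2) with its 95% confidence interval for each of the 66 genes, in sorted cells (left) and whole embryos (right), coloured by complex. All points lie between -0.67 and 0.65, and 0 passed the test.

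Other mitochondrial genes, their regulators and glycolysis genes did not all follow. Counts are for controls and gcm, with 14 arrays unless stated. Across all probe sets 21.5% and 20.9% were lower and 24.9% and 24.7% higher. With 15 arrays these shares were 13.3% and 17.4%, and 12.8% and 19.5%. Of 13 further electron transport genes, 9 were lower and 2 higher in sorted controls, and 10 and 2 in gcm, with 15 arrays 9 and 1, and 8 and 1. The falls were led by levy and cype, subunits of complex IV, ox, a small subunit of complex III, and sun, the epsilon subunit of ATP synthase, with changes of -4.90, -4.85, -4.87 and -4.68 in controls and -4.30, -4.20, -3.99 and -4.83 in gcm. For ox, which has more than 1 probe set, the values are those of the probe set with the highest mean. One gene lower in both, mge, is known as an import receptor of the outer membrane and not as an electron carrier (-1.86 and -1.14, in gcm not called with 15 arrays at an adjusted p of 0.0621, and named after its values were seen).

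Of 13 assembly factors and copper or heme delivery genes, 10 and 7 were lower and 0 higher, and with 15 arrays 6 and 6 were lower. Cox10, which makes the heme of complex IV, had changes of -1.92 and -2.32, and Surf1, an assembly factor of the same complex, had -1.31 and -1.19. Of 10 regulators of mitochondrial genes, 5 and 4 were lower and 3 and 4 higher (with 15 arrays 4 and 4, and 3 and 3). TFAM, which packs mitochondrial DNA, had changes of -1.99 and -1.90, while ewg, the fly relative of nuclear respiratory factor 1, rose by 2.67 and 1.94.

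Of 16 genes of the citric acid cycle and pyruvate dehydrogenase, 7 and 6 were lower and 2 and 1 higher (with 15 arrays 6 and 5, and 0 and 1), and Scsalpha1, a subunit of succinyl-CoA ligase, had changes of -2.42 and -2.99. Of 16 carriers and inner membrane genes, 5 and 3 were lower and 4 and 5 higher (with 15 arrays 3 and 3, and 3 and 4). With 14 arrays these are 31.25% and 18.75% lower and 25% and 31.25% higher, near the shares of all probe sets. The 2 adenine nucleotide translocase genes, which exchange ADP for ATP, moved in opposite directions: sesB had changes of -2.51 and -2.60, and Ant2 of 1.60 and 1.75. Of 11 glycolysis genes, 5 and 4 were lower and 2 and 0 higher (with 15 arrays 3 and 4, and 1 and 0), with Ald1, the aldolase gene, at -4.39 and -5.04.

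Subunit genes of 3 other large machines serve as a scale. Of all probe sets 21.5% and 20.9% were lower and 24.9% and 24.7% higher in controls and gcm. Of 33 cytosolic ribosomal protein genes 28 and 28 were lower and 1 and 1 higher, with median changes of -3.50 and -3.33. Of 64 mitochondrial ribosomal protein genes 61 and 60 were lower and 0 higher, with medians of -2.17 and -1.96. Of 39 proteasome genes 20 and 18 were lower and 3 and 9 higher, with medians of -0.47 and -0.24. With 15 arrays the genes lower were 28 and 27, 53 and 56, and 17 and 15 in these 3 lists (13.3% and 17.4% of all probe sets). Of the proteasome genes 2 and 9 were then higher (12.8% and 19.5% of all probe sets). The medians in controls were -2.65, -1.63 and -0.40. The respiratory chain genes other than copies, with medians of -3.43 and -2.99, lie between the cytosolic ribosomal proteins and the mitochondrial ones, also with 15 arrays (-2.56 in controls). The differences between these lists were not tested.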

How the data were processed

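The 16 arrays were grouped by their titles. The authors deposited 1 linear intensity per probe set and array, their method not given in the sources used here. With R 4.3.3, the 15 distinct arrays were quantile normalised and log2(intensity + 16) was taken. One mean per group was fitted with limma 3.58.1 (eBayes with trend), with Benjamini-Hochberg adjustment over 13966 probe sets, 44 control probe sets left out. Changes are on this log2 scale, which understates those of dim genes. Depth does not apply to arrays. The procedure was tested on simulated data. Other scalings, pseudocounts, filters, array weights and blocks were tried, and each array was left out in turn.

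Genes were named by rank of called changes and of level, all copies and complex II included, up to 4 called genes per other list, and otherwise as stated. The members and lists were chosen with earlier results of these data known. Gene positions are from RefSeq, assembly Release 6. For gcm against control in whole embryos, arrays of equal number deviated together (r of 0.20 to 0.34 for 3 pairs). There the 9 pairs of unequal number ran from -0.28 to 0.29, which overlaps that range, so pairing by number is not settled. Elsewhere at least 1 pair of equal number had a negative r.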

Additional observations from a re-analysis of the deposited data

Results flagged for a closer look

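In its median level of these genes, the array labelled whole control 3 lay far below the rest of its group. This median over all 66 genes was 5.95, where the others had 8.90 to 9.35. Without copies it was 5.73 for complex I (others 8.94 to 9.50), 5.57 for complex III (10.55 to 11.05), 7.20 for complex IV (10.74 to 11.14) and 6.75 for complex V (9.99 to 10.32). Of the 45 genes lower in both comparisons, its level was below every other whole embryo array for 45 and within the range of the sorted arrays for 34.

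Single arrays stood apart from the rest of their group for a few genes, where chance alone gives about 1 in 20 groups: 3 of 66 genes in sorted controls and 5 of 66 in whole gcm embryos. In sorted controls, ND-SGDH read 5.47 on array 2 (others 4.47 to 4.59), ND-51L2 6.47 on array 4 (5.88 to 5.95) and ATPsynCF6L 4.27 on array 2 (4.37 to 4.39). The median of all 66 genes was 5.81 on sorted control 1 (5.89 to 5.91). In whole gcm embryos, ATPsynO read 10.43 on array 1 (11.11 to 11.17), ND-51L2 5.47 on array 1 (5.98 to 6.08), UQCR-14L 5.01 on array 1 (4.38 to 4.45) and COX7C 4.14 on array 3 (4.29 to 4.31). The fifth gene, ND-B22, named after its values were seen, read 9.12 on array 2 (9.32 to 9.36).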

How the results depend on the processing

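With 15 arrays the median change of the 66 genes was -2.01 for sorted cells against whole embryos in controls, 0.46 for gcm against control in whole embryos and -0.33 for the difference of the gcm changes. With intensities as deposited the medians were -3.22 in controls, -2.61 in gcm, -0.26 for whole embryos and 0.38 for the difference. Sorted against whole, in controls and gcm, median centring gave -2.80 and -2.49, a pseudocount of 64 gave -2.08 and -1.87, and leaving out the dimmest 40% gave -3.31 and -2.85. A pseudocount of 1 gave -2.66 in gcm. Array weights called 3 genes for gcm in whole embryos. Median centring turned COX4L to 0.00298 and COX7AL to 0.38 in controls. Leaving out 1 array gave medians of -2.66 to -2.46 with 47 to 52 calls in controls, -2.37 to -2.10 with 46 to 48 calls in gcm, 0.01 to 0.12 for gcm in sorted cells, -0.15 to 0.04 in whole embryos and -0.02 to 0.22 for the difference, with 0 calls in the last 3. With the replicate block, entering the array deposited under both numbers as 2 or as 3, 50 and 49 genes were called in controls, 47 and 46 in gcm, and 0 and 0 for gcm in whole embryos (10 and 13 with an unadjusted p under 0.05 in limma). The call of ND-20L ended without sorted gcm 3, and that of ATPsynCF6L without whole control 1 or whole control 2. Of 2552 values of single genes under alternatives, 2458 kept their direction and side of the threshold. The cause was not tested. Signal near background limits the size of changes in at least 7 genes called lower in both comparisons.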

Other observations

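The 6 lists outside the symbol rule cover mitochondrial genes, their regulators and glycolysis. Of their 79 genes, 3 passed limma's test for gcm against control. These were 2 in sorted cells and 1 in whole embryos, where 0.78% and 0.444% of all probe sets were called. In sorted cells ox, of complex III, was higher by 0.95 (adjusted p = 0.0316), but by 0.42 (adjusted p = 0.292) as the mean over its probe sets, so the size rests on the probe set used, and ewg was lower by 1.09 (adjusted p = 0.0146), and in whole embryos the aldolase gene Ald1 was higher by 1.42 (adjusted p = 0.0300). Over 29 alternatives ox was called in 16 (adjusted p from 0.0162 to 0.999), ewg in 21 (0.00293 to 0.506) and Ald1 in 18 (0.00221 to 0.173), and none of the 3 was called with 15 arrays. Leaving out 1 array ended the call of ox in 5 of 14 cases, of ewg in 2 (sorted gcm 1 or sorted gcm 3) and of Ald1 in 6.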
